A study of Mus musculus with 2 samples.

Results

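The 6 genes described here encode the adhesion molecules by which blood vessels capture circulating leukocytes: Selp, Sele, Vcam1, Icam1, Icam2 and Madcam1. They were chosen by name from the 31055 genes counted, and all 6 were present in both libraries. The question was in which vessel class of KPC and PyMT tumors each of them was transcribed, since endothelium lacking these molecules offers leukocytes no foothold. Leukocytes leave the blood mainly through post-capillary venules, in steps. P-selectin and E-selectin make the cells roll along the wall, ICAM-1, ICAM-2, VCAM-1 and MAdCAM-1 then hold them through integrins, and the arrested cells cross the endothelium.

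Each of the 2 libraries held endothelial cells sorted from orthotopic tumors of wild-type, 6-week-old, female C57BL6 mice, which had received 100000 tumor cells 10 days earlier. KPC is a pancreatic ductal adenocarcinoma line from genetically engineered mice, and PyMT is a mammary line driven by the polyoma middle T antigen, so that library, organ and tumor line cannot be told apart. Each tumor was digested at 37 °C for 30 min, with 500 U/mL collagenase for KPC and 400 U/mL for PyMT, and cells bearing CD45, EpCAM, Ter119 or podoplanin were depleted in the sort. With 1 library per model and the number of mice pooled in it not given in the sources used here, no difference between classes or models has a replicate check. Every interval below is a 95% interval for counting error only and treats molecules as independent.

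Cells with at least 500 genes and under 10% mitochondrial counts numbered 9591 of 10236 barcodes in KPC and 11744 of 12464 in PyMT. The 44441942 unique molecular identifiers (UMIs, 1 per captured RNA molecule) of KPC and the 55547926 of PyMT gave a median of 2958 and 3805 per barcode, and 170 barcode sequences occurred in both libraries. Classes were assigned by the summed UMIs of gate genes, in a fixed order: tumor (Krt8 and Krt18, at least 5), fibroblast (Col1a1 and Col1a2, 10), lymphatic (Mmrn1 and Prox1, 3), pericyte (Notch3 and Higd1b, 2), artery (Gja5 and Sema3g, 2), tip (Apln and Angpt2, 3), venule (Ackr1, 2), capillary (Car4 and Cd300lg, 2) and the rest as "other". The venule class held 334 KPC and 224 PyMT cells, the capillary class 1317 and 2647, the tip class 1409 and 2050, and the artery class 106 and 128. No gate used a member. Venule markers outside the gate were compared with the label: 8 of 10, among them Cytl1, Ctsh and Bst1, were at least 2-fold above the capillary class in each library, and 9 of 10 capillary markers were lower by as much in KPC. The marker lists were chosen with earlier results of these data known, so this is not an independent check. Vwf, Il6st and Nr2f2, which are named again below in other lists, were among the 8. In PyMT the capillary markers did not separate the classes, with 4 of 10 lower, 5 within 2-fold and Aqp1 higher by a log2 ratio of 2.01, and their summed level was 6411 CPM in venule and 6680 CPM in capillary cells. Of the PyMT venule cells, 78 of 224 also passed the capillary gate, against 14 of 334 in KPC. In the artery class, artery markers outside the gate summed to 9925 CPM in KPC and 5945 CPM in PyMT. Lymphatic markers there summed to 404.5 CPM in KPC and 3384 CPM in PyMT, against 323 CPM in PyMT venule cells. Their part in the PyMT artery levels below was not tested. In the tumor class, tumor and epithelial markers outside the gate summed to 4699 CPM in KPC but 44.1 CPM in PyMT. These markers thus do not bear out the tumor label in PyMT.

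Sele and Selp are neighbors on chromosome 1 of the mouse genome (GRCm38), at positions 164048234 to 164057677 and 164115264 to 164150026 on the plus strand, with 57586 bases between them. Icam1 lies on chromosome 9 (21015985 to 21028817, plus strand), Madcam1 on chromosome 10 (79664559 to 79668537, plus), Vcam1 on chromosome 3 (116109949 to 116129688, minus) and Icam2 on chromosome 11 (106377656 to 106388075, minus). Counted genes on the opposite strand overlap Selp, Vcam1 and Icam1, but each had between 0 and 3 UMIs in a whole library and none in venule cells. The cytokine-inducible members are textbook targets of NF-kB, and their proximal promoters are printed because Sele, Icam1 and Madcam1 shared the venule class below while differing in where else, and in which tumor, they were found. Of the members, only Selp, Sele, Icam1 and Madcam1 had a sequence in the set of RefSeq promoters used here. Each sequence is the 250 bases before the RefSeq start (GRCm38.p6, plus strand, 5′ to 3′), and capitals mark matches, on either strand, to the NF-kB-like letters GGNNNTTCC or to GG, any 5 bases and TCC, which may overlap each other and which were chosen with these sequences already seen.
Sele (chr1:164047984-164048233): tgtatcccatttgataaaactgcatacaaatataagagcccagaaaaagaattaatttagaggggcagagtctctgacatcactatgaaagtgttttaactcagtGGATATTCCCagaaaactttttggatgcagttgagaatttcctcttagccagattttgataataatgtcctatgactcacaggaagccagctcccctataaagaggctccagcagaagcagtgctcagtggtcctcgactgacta
Selp (chr1:164115014-164115263): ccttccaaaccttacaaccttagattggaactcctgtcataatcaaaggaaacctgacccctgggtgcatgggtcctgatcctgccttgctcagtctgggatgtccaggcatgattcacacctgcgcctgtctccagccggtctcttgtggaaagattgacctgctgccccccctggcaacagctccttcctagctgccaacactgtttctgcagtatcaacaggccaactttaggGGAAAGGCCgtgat
Icam1 (chr9:21015690-21015939): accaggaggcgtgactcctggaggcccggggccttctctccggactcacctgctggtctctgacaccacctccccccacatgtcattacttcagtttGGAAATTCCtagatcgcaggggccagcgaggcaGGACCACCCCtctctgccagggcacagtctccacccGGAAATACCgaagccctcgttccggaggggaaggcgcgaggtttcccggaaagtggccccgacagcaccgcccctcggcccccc
Madcam1 (chr10:79664309-79664558): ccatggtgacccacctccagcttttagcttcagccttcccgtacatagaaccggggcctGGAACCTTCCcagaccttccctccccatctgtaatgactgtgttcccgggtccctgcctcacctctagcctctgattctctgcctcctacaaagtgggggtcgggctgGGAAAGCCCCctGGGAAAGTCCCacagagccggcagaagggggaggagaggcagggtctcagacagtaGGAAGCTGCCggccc
The Selp sequence holds a match that ends 6 bases before the start. The Sele sequence holds a match from 145 to 136 bases before the start and TATAAA, searched on the plus strand, from 49 to 44 before it. Icam1 has 3 separate runs of capitals, with the nearest ending 76 bases before the start, and Madcam1 has 4. Of 32817 RefSeq promoters of that length, 15.7% hold the first motif, 41.8% the second, 47.8% either and 7.60% TATAAA, so a match alone is common. These matches are descriptions of letters, not of binding.

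All members but Icam2 were higher in venule than in capillary cells of both tumors, Madcam1 in PyMT on few UMIs. A gene was counted as higher when its level, in counts per 1000000 UMIs of the class (CPM), was at least 2-fold greater (a log2 ratio of 1 or more) with at least 20 UMIs in both classes together. That held for 5 of 6 members in KPC, where 4.08% of 9749 genes passed, and for 5 of 6 in PyMT, where 7.65% of 10853 passed. The PyMT count included Madcam1, whose log2 ratio of 1.90 (0.34 to 3.19) rested on 6 venule UMIs. No member was lower by as much in either library, against 7.58% of genes in KPC and 7.99% in PyMT. The median log2 ratio of the members was 3.95 in KPC and 2.05 in PyMT, and that of all genes -0.064 and 0.014. Against tip cells 5 of 6 members passed in KPC (background 6.74%) and 4 of 5 with enough UMIs in PyMT (8.86%), and against artery cells 4 of 6 (9.33%) and 3 of 5 (7.01%). Vcam1 passed over capillary and tip cells but not over artery cells, and Madcam1 in PyMT had too few UMIs to be counted there.

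**Figure D1:**
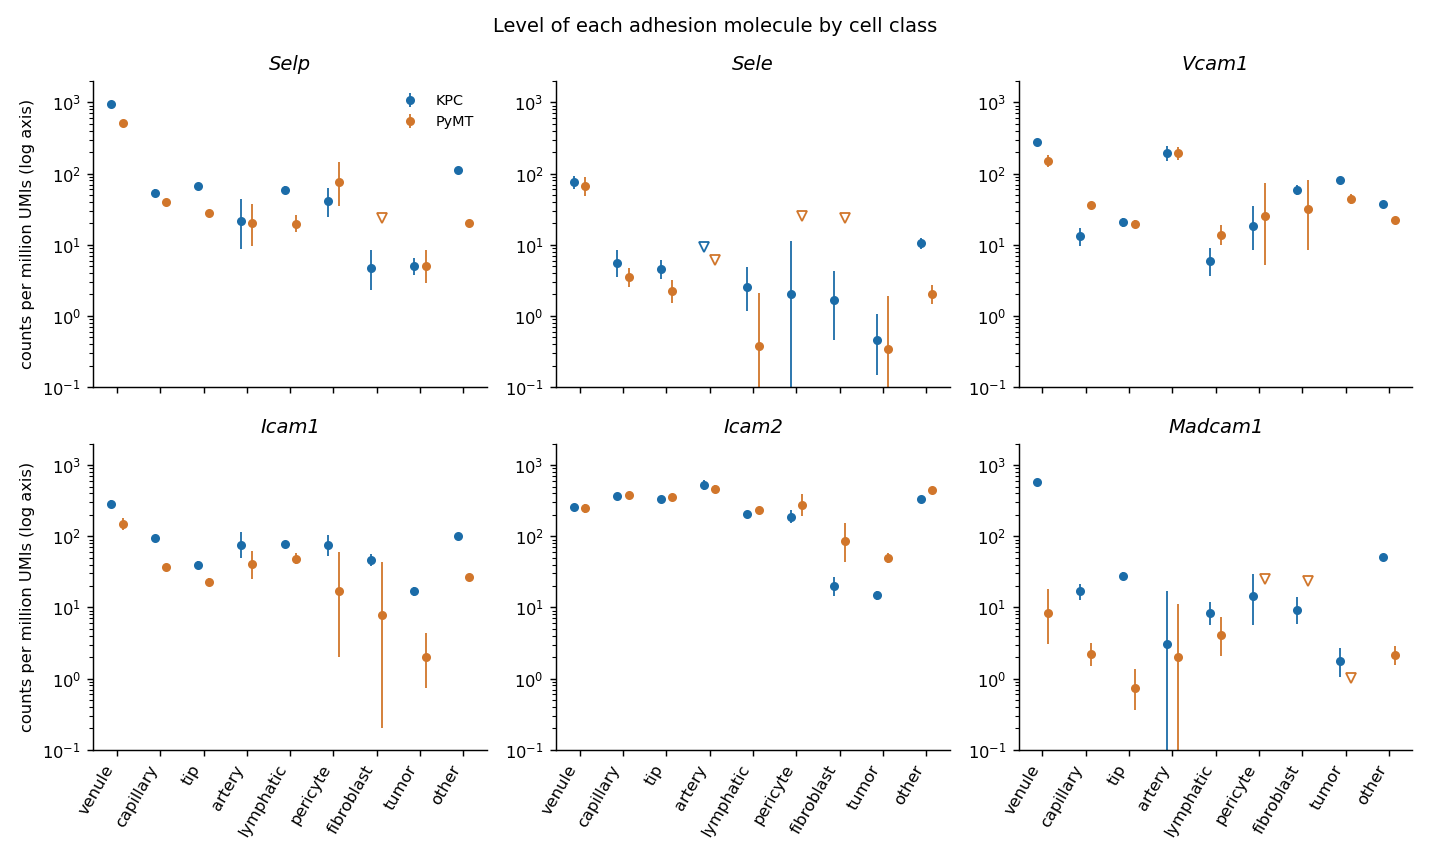
Level of each member in the 9 cell classes of the KPC (blue) and PyMT (orange) libraries, in CPM on a log axis, with 95% Poisson intervals that are cut at the lower edge of the axis. Open triangles stand at the limit of 3 counts for classes with no UMI. Selp, Sele and Icam1 peak in the venule class of both libraries and Madcam1 in that of KPC, Vcam1 is high in venule and artery cells, and Icam2 is spread over all vessel classes.

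Selp encodes P-selectin, which endothelial cells store in Weibel-Palade granules and move to the surface within minutes of activation. Its venule level was 951 CPM in KPC (1084 UMIs, interval 895 to 1009) and 507 CPM in PyMT (366 UMIs, 457 to 562). In every other class of either library it lay at or below 114 CPM, the level of the KPC other class. The venule-to-capillary log2 ratio was 4.15 (3.93 to 4.37) in KPC and 3.68 (3.48 to 3.88) in PyMT, and the ratio to artery cells, which had 7 and 10 Selp UMIs, was 5.47 (4.42 to 6.79) and 4.64 (3.75 to 5.72). Among the KPC classes below the venule and other classes, tip (66.2 CPM), lymphatic (59.1) and capillary (53.6) cells followed in that order, each with an interval that overlapped its neighbor's. With every cell thinned to 2000 UMIs, 71.5% of KPC venule cells (65.4 to 77.2%) and 58.4% of PyMT venule cells (50.04 to 66.4%) had a Selp UMI, against 6.15% and 6.37% of capillary cells. Selp was thus detected in most venule cells, and 89 of the 334 KPC venule cells carried 5 or more UMIs. The share in tumor-class cells, which should lack Selp, was 0.888% at that depth in KPC.

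Sele encodes E-selectin, which is made after cytokine stimulation rather than stored. The KPC venule class had 86 Sele UMIs or 75.5 CPM (60.4 to 93.2), and PyMT had 48 UMIs or 66.5 CPM (49.0 to 88.2). Capillary cells had 5.60 and 3.46 CPM, tip cells 4.53 and 2.24 CPM, and artery cells none in either library. The venule-to-capillary log2 ratio was 3.75 (3.05 to 4.52) in KPC and 4.26 (3.65 to 4.88) in PyMT. Against the level that 3 counts would have given in the artery class, Sele was 8.21-fold higher in KPC venule cells and 10.9-fold higher in PyMT venule cells. The lower interval limit of the venule-to-artery log2 ratio was 2.71 in KPC and 3.10 in PyMT. At 2000 UMIs per cell, 10.46% of KPC and 10.7% of PyMT venule cells had a Sele UMI, and at most 1.29% of capillary, tip or artery cells did. The 48 PyMT venule UMIs lay in 26 of 224 cells. At so low a count, a cell without a Sele UMI is not shown to lack the transcript. Of the members, Sele and Icam2 had venule intervals that overlapped between the 2 tumors.

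Vcam1 encodes VCAM-1, the vascular ligand of the integrin formed by Itga4 and Itgb1 on lymphocytes and monocytes. In KPC it stood at 276 CPM in venule cells (314 UMIs, 246 to 308) and 193 CPM in artery cells (63 UMIs, 148 to 247), against 13.1 CPM in capillary and 20.7 CPM in tip cells. In PyMT it stood at 151 CPM in venule cells (109 UMIs, 124 to 182), 193 CPM in artery cells (95 UMIs, 156 to 236), 35.9 CPM in capillary and 19.7 CPM in tip cells. The level of Vcam1 was therefore higher in both venule and artery cells than in capillary cells. The venule-to-artery log2 ratio was only 0.51 (0.12 to 0.93) in KPC and -0.35 (-0.76 to 0.061) in PyMT. In PyMT, however, 1 artery cell held 47 of the 95 Vcam1 UMIs. Without it the PyMT artery level was 98.5 CPM and the venule-to-artery log2 ratio 0.62 (0.11 to 1.14), so the direction turned on that cell. It had 5634 UMIs in all, 174 of artery markers and none of immune or pericyte markers. It also held 7 of the 20 fibroblast marker UMIs of the PyMT artery class, and whether it was a mixed cell was not tested. In KPC the top artery cell held 10 of 63 UMIs, and without it the ratio was 0.74. Artery cells exceeded capillary cells by a log2 ratio of 3.89 (3.32 to 4.45) in KPC and 2.43 (2.09 to 2.75) in PyMT, and with that PyMT cell left out the artery level of 98.5 CPM was still above the capillary level of 35.9 CPM. The 5 artery cells with the most Vcam1 held 33 of the 63 UMIs in KPC and 60 of the 95 in PyMT. Thinned to equal depth, 20.6% of KPC artery cells (11.7 to 32.1%) and 10.1% of PyMT artery cells (5.15 to 17.3%) had a Vcam1 UMI, beside 31.4% and 18.8% of venule cells and 2.27% and 7.03% of capillary cells. In PyMT the artery interval overlapped that of capillary cells (6.05 to 8.13%). Vcam1 was also found outside vessels, at 81.2 CPM in KPC tumor-class cells and 58.8 CPM in KPC fibroblasts.

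Icam1 encodes ICAM-1, the ligand of the leukocyte integrins LFA-1 and Mac-1 in firm arrest and crawling. Unlike Sele, which had no UMI in artery cells, Icam1 was found in all vessel classes, though with only 2 UMIs in PyMT pericytes. Selp was found in all of them too, above Icam1 in tip cells and below it in artery cells. Both differences held in each library, with intervals that overlapped in PyMT. The venule excess of Icam1 over capillary and over tip cells was the smallest of the 5 members in KPC. Venule cells had 288 CPM in KPC (328 UMIs, 257 to 321) and 149.6 CPM in PyMT (108 UMIs, 123 to 181). Capillary cells had 94.7 and 37.0 CPM, artery cells 76.6 and 40.6, lymphatic cells 77.5 and 48.4, and tip cells 40.1 and 23.1, the lowest of the endothelial classes in each library. The venule-to-capillary log2 ratio was 1.60 (1.38 to 1.83) in KPC and 2.02 (1.70 to 2.32) in PyMT, and the venule-to-tip ratio 2.85 (2.63 to 3.06) and 2.70 (2.37 to 3.02). In artery and lymphatic cells the Icam1 intervals overlapped within each library. At equal depth 34.7% of KPC and 22.1% of PyMT venule cells had an Icam1 UMI, against 15.5% and 6.12% of capillary cells and 8.04% and 4.70% of tip cells.

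Icam2 encodes ICAM-2, a further LFA-1 ligand that resting endothelium carries constitutively, also at its junctions. It was the 1 member with a lower level in venule than in capillary and tip cells, and like Vcam1 it was high in artery cells. Artery cells had the highest level, with 530.1 CPM in KPC (454 to 615) and 464 CPM in PyMT (406 to 529), followed by capillary cells with 370.4 and 382 CPM and tip cells with 334 and 361 CPM, whereas venule cells had 255 CPM (227 to 286) and 248 CPM (213 to 287). The PyMT other class, at 452 CPM (443 to 461), was within the interval of the artery class. The venule-to-capillary log2 ratio of Icam2 was -0.54 (-0.72 to -0.35) in KPC and -0.62 (-0.85 to -0.41) in PyMT, and 18.9% and 14.6% of all genes compared had a lower ratio. In venule cells thinned to 2000 UMIs, 36.4% in KPC and 36.2% in PyMT had an Icam2 UMI, against 47.9% and 51.6% of capillary cells and 60.3% and 59.6% of artery cells. In tumor-class cells Icam2 was down to 14.8 CPM in KPC and 50.3 CPM in PyMT, where tumor markers did not bear out the label.

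Madcam1 encodes MAdCAM-1, the ligand of the gut-homing integrin of Itga4 and Itgb7, and is known from venules of the gut and its lymphoid tissue. In KPC it was a venule gene, at 586 CPM in venule cells (668 UMIs, 543 to 632) against 16.8 CPM in capillary cells, 27.5 CPM in tip cells and a single UMI in artery cells. The venule-to-capillary log2 ratio was 5.13 (4.75 to 5.52), the largest among the members and the 12th largest of 9749 genes. In PyMT Madcam1 was nearly absent, with 6 UMIs in 224 venule cells, or 8.31 CPM (3.05 to 18.1), 29 UMIs in capillary cells (2.23 CPM) and 10 in tip cells (0.747 CPM). One PyMT venule cell held 4 of the 6 UMIs, and without it the venule level was 2.78 CPM. The PyMT venule-to-capillary log2 ratio of 1.90 (0.34 to 3.19) therefore rested on 3 cells, and these all passed the capillary gate as well: with that gate applied before the venule gate, or with only cells of 1 vessel gate, no Madcam1 UMI was left in PyMT venule cells. In KPC 153 of 334 venule cells had a Madcam1 UMI, of which 46 had 1, 60 had 2 to 4 and 47 had 5 or more, so the count was graded over the cells in which it was found.

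**Figure D2:**
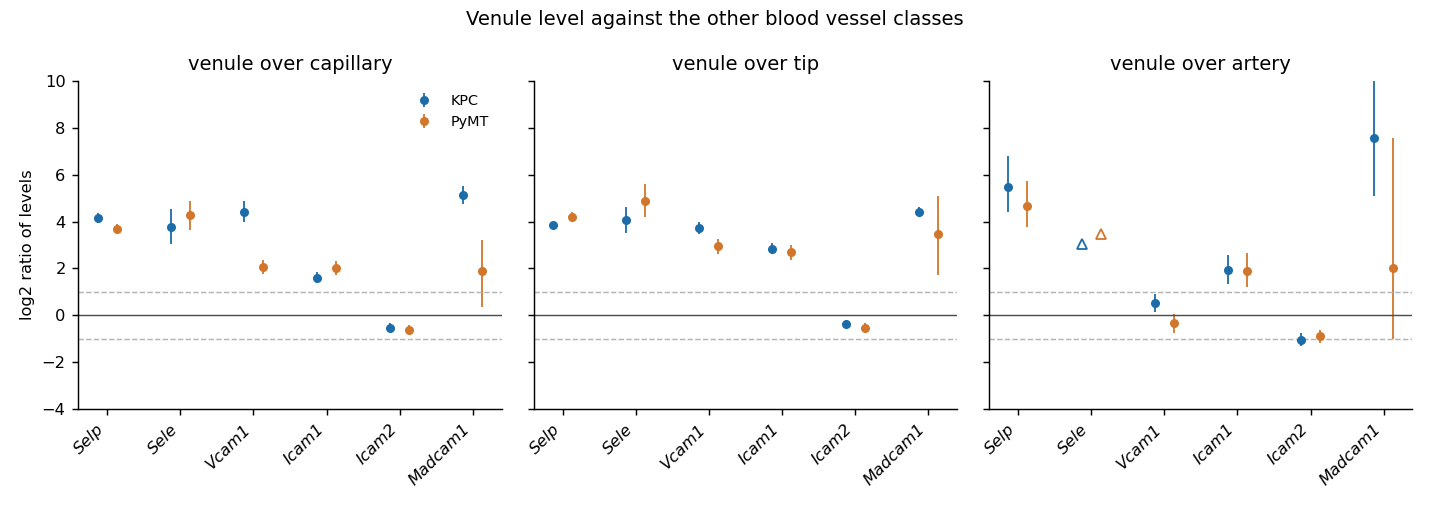
Log2 ratio of the level in venule cells over that in capillary, tip and artery cells (left to right) for each member in KPC (blue) and PyMT (orange), with 95% counting intervals cut at the edges of the axis. Dashed lines mark a 2-fold difference, and open triangles are lower bounds for Sele, which had no UMI in artery cells. All members but Icam2 exceed 2-fold over capillary cells, Madcam1 in PyMT on 6 venule UMIs and with an interval that reaches below 2-fold. Vcam1 lies near 0 over artery cells.

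The rule set the venule class at 2 or more Ackr1 UMIs, and the levels on both sides of that threshold are given here as a description, since Ackr1 chose the class. Ackr1 encodes an atypical chemokine receptor of venular endothelium. Among venule, capillary and other cells together, Selp in KPC was at 81.7 CPM in cells with no Ackr1 UMI, 499.6 CPM with 1, 830.2 CPM with 2 to 3, 916 CPM with 4 to 7 and 1147 CPM with 8 or more. In PyMT the same bins gave 22.8, 207, 421, 545 and 658 CPM. Madcam1 in KPC rose likewise, from 34.3 CPM with none to 242 CPM with 1, 395 with 2 to 3, 456 with 4 to 7 and 989.8 with 8 or more. The 172 KPC and 216 PyMT cells just outside the gate, with 1 Ackr1 UMI, lay between those with none and those with 2 to 3 for Selp in both libraries and for Madcam1 in KPC. Madcam1 in PyMT had between 1 and 4 UMIs in each bin with Ackr1. Vcam1 was 194 CPM with 1 and 167 CPM with 2 to 3 Ackr1 UMIs in KPC, intervals that overlapped, and reached 404 CPM at 8 or more. Sele and Icam1 did not keep rising: Icam1 in KPC had 397 CPM at 4 to 7 and 302 CPM at 8 or more, with overlapping intervals. Icam2 had its highest level in cells without Ackr1, at 349.5 CPM in KPC and 428 CPM in PyMT, although the interval of the top KPC bin (239.8 to 361) overlapped that of the lowest. The median depth of the cells in these bins ran from 2048 to 3370 UMIs in KPC and from 2311 to 3738 in PyMT.

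**Figure D3:**
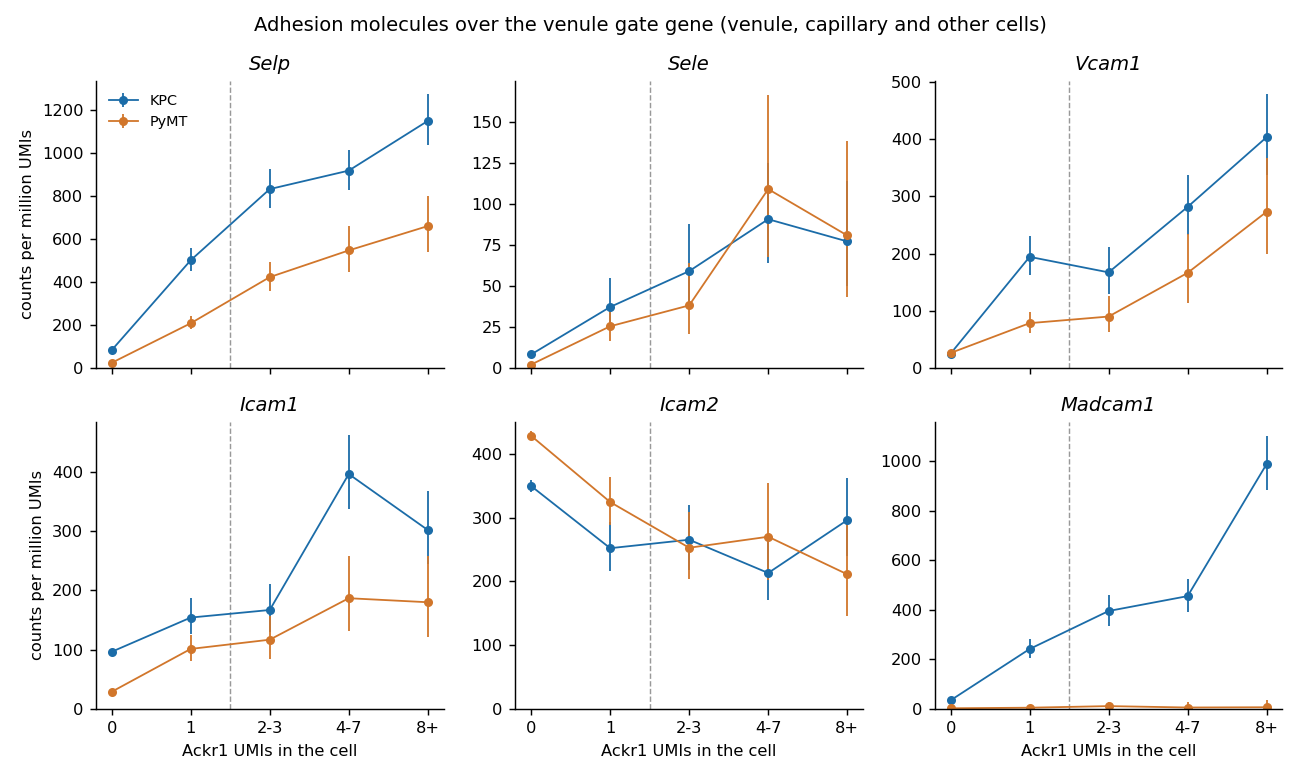
Level of each member, in CPM, against the number of Ackr1 UMIs in the cell, over venule, capillary and other cells of KPC (blue) and PyMT (orange), with 95% Poisson intervals. The dashed line is the threshold of the venule class. Selp rises from 81.7 to 1147 CPM in KPC and from 22.8 to 658 CPM in PyMT, while Icam2 is highest in cells without Ackr1 and Madcam1 in PyMT stays near 0.

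Venule cells often carried several members at once. At 2000 UMIs per cell, 61.1% of 239 KPC venule cells and 34.9% of 149 PyMT venule cells had a UMI of at least 2 of the 5 members other than Icam2. In no other blood vessel class, the other class included, did that share exceed 9.85% in KPC or 3.67% in PyMT. Such shares rise with the share of cells that have each member alone. Whether they exceed what those single shares would give was not tested. In KPC, 3 venule cells had all 6 members, 20 had none, and the largest group, 72 cells, had 2. Among all pairs of members, Icam1 and Vcam1 were found together in KPC, where 50.7% of the Vcam1-positive venule cells (38.9 to 62.4%) had an Icam1 UMI against 27.4% of the Vcam1-negative ones (20.8 to 34.9%). In PyMT the shares were 17.9% of 28 and 23.1% of 121 cells, with intervals that overlapped. Madcam1 went with Sele in KPC, at 68.0% of 25 Sele-positive cells (46.5 to 85.1%) against 37.9% of the others (31.3 to 44.7%), while read the other way, Sele in 17.3% of Madcam1-positive cells (10.44 to 26.3%) and 5.67% of Madcam1-negative ones (2.48 to 10.9%), the intervals overlapped. It did not divide with Icam1, at 41.0% of cells with and 41.0% of cells without an Icam1 UMI. Selp was more often found with Sele in both libraries, 84.0% against 70.1% in KPC and 75.0% against 56.4% in PyMT, but each pair of intervals overlapped.

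**Figure D4:**
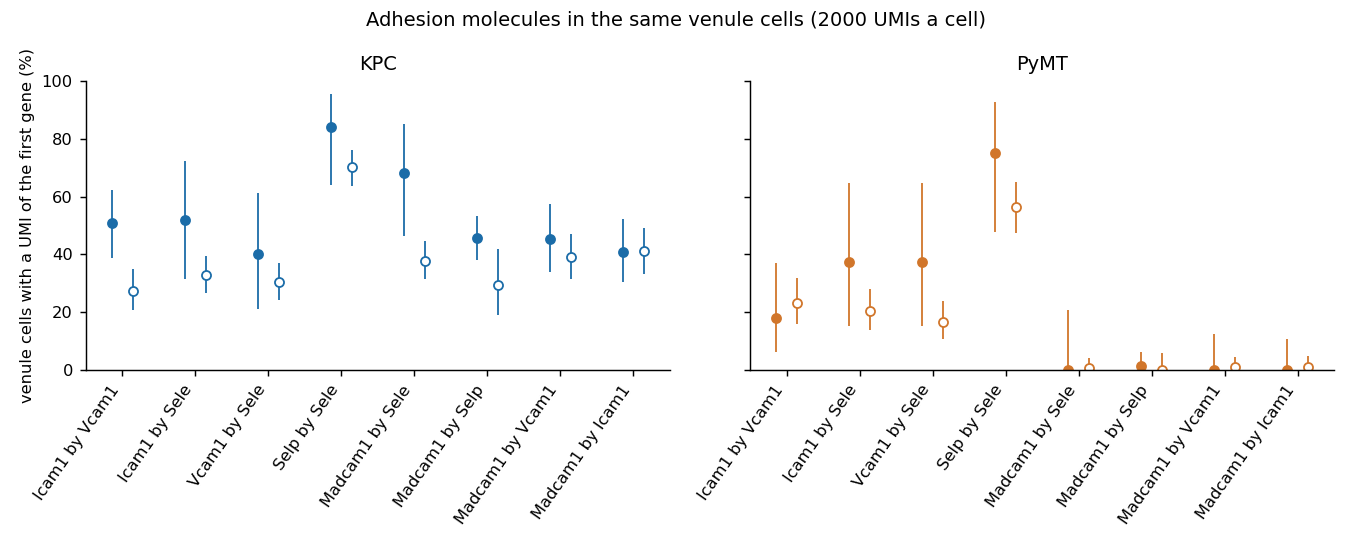
Share of venule cells, each thinned to 2000 UMIs, with a UMI of the first gene among cells with (filled) and without (open) a UMI of the second gene, in KPC (left, 239 cells) and PyMT (right, 149 cells), with exact 95% binomial intervals. Icam1 by Vcam1 and Madcam1 by Sele separate in KPC, and Madcam1 is near 0 throughout PyMT.

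The state of the venule cells that held a member differed from that of those without it. A list of 22 NF-kB target genes without the members, such as Nfkbia, Traf1 and Il6, was summed over the cells. In cells with a Sele UMI its level was 3270 CPM against 2093 CPM in KPC, a log2 ratio of 0.64 (0.52 to 0.76), and in PyMT 2464 against 1498 CPM, a ratio of 0.72 (0.48 to 0.95). For Icam1 the ratio was 0.63 (0.52 to 0.74) in KPC and 0.64 (0.46 to 0.81) in PyMT, and for Vcam1 0.86 (0.74 to 0.97) and 0.21 (0.026 to 0.38). Selp had smaller ratios of 0.26 (0.10 to 0.43) in KPC and 0.29 (0.091 to 0.50) in PyMT. Madcam1 had 0.29 (0.18 to 0.40) in KPC and, on 3 positive cells, 0.49 (-0.070 to 0.99) in PyMT. Icam2 had the opposite sign, with -0.35 in KPC and -0.27 in PyMT. Cells with a UMI were also deeper in most of these comparisons (for Icam2 in KPC, a median of 3385 against 2326 UMIs). Immediate early and heat shock genes, which respond to tissue digestion, moved with Sele and Icam1 too: their ratio was 0.36 and 0.51 for Sele and 0.35 and 0.54 for Icam1 in KPC and PyMT (0.39 and -0.36 for Vcam1), and their part in these results was not tested. Markers of dividing cells differed as well. In KPC their ratio was 1.64 (1.375 to 1.91) for Icam2, 0.73 for Icam1 and -0.67 for Vcam1. In PyMT these were 0.13, 0.049 and -0.24. For Sele the ratio was -0.23 in KPC and -2.53 (-3.54 to -1.68) in PyMT. For Selp it was -0.0105 and -0.70, and for Madcam1 -0.20 and, on 3 PyMT cells, -1.97. The part of cell division in these results was not tested. Interferon-stimulated genes were higher in Vcam1-positive venule cells of both libraries, by 0.72 (0.57 to 0.87) in KPC and 0.61 (0.42 to 0.80) in PyMT. In PyMT 1 venule cell held 91 of the 961 UMIs of that list, and without it the ratio was 0.26 (0.055 to 0.47). In Icam1-positive cells they were 0.18 higher in KPC and fell by 0.56 in PyMT. Immune markers also stood higher in Vcam1-positive venule cells, at 166 against 47.1 CPM in KPC and 139.7 against 30.0 CPM in PyMT. Cd74, an antigen-presentation gene that venule cells had at log2 ratios of 2.13 and 4.61 over capillary cells, made up part of that list, and without it the levels were 58.1 against 27.4 CPM and 49.6 against 24.0 CPM. Without the 1 KPC venule cell that held 15 of those 46 immune marker UMIs, the KPC levels were 27.1 and 27.4 CPM. In PyMT the top cell held 4 of 23, and without it the levels were 31.9 and 24.0 CPM, a log2 ratio of 0.41 (-1.17 to 1.87). Lymphatic markers, mainly Ccl21a, were higher in PyMT venule cells with a Vcam1 UMI, at 847 against 90.1 CPM, a log2 ratio of 3.23 (2.76 to 3.74), and in those with an Icam2 UMI, at 535 against 72.5 CPM. One cell held 119 of the 233 lymphatic marker UMIs, and without it the ratio was 1.82 (1.26 to 2.40) for Vcam1, 1.69 (1.03 to 2.40) for Icam2 and 1.91 (1.34 to 2.49) for Icam1, which had -0.017 (-0.44 to 0.39) with it. In KPC the lymphatic ratio for Vcam1 was -0.44 (-0.97 to 0.073). The part of these markers in the Vcam1 results was not tested. With cells of 2 or more immune marker UMIs left out, the Vcam1 venule-to-capillary log2 ratio was 4.48 in KPC and 1.86 in PyMT.

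Between the tumors, Madcam1 was the member that differed most. Its venule level in KPC was 70.5 times that in PyMT, a log2 ratio of 6.14 (5.01 to 7.59), which ranked first of 7596 genes among those with a UMI in both. A log2 ratio of 1 or more was reached by 1 of the 6 members, and by 4.7% of all genes. Selp (0.91), Icam1 (0.94) and Vcam1 (0.87) were somewhat higher in KPC venule cells, and Sele (0.18, -0.34 to 0.72) and Icam2 (0.042, -0.23 to 0.32) had intervals that included 0. Madcam1 was also higher in KPC tip cells, by 5.20 (4.30 to 6.28), in other cells, by 4.60, and in capillary cells, by 2.91 (2.26 to 3.60). A higher KPC level outside venules was not particular to Madcam1. In other cells Selp was higher by 2.48 (2.32 to 2.64), Sele by 2.38 (1.87 to 2.91), Icam1 by 1.90 and Vcam1 by 0.78. Icam2 had -0.42 there. In tip cells the ratio was 1.255 for Selp, 1.02 for Sele and 0.79 for Icam1, but 0.077 for Vcam1 and -0.11 for Icam2. Vcam1 went the other way in capillary cells, with a log2 ratio of -1.46 (-1.91 to -1.03), and in lymphatic cells, with -1.22 (-2.07 to -0.41).

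**Figure D5:**
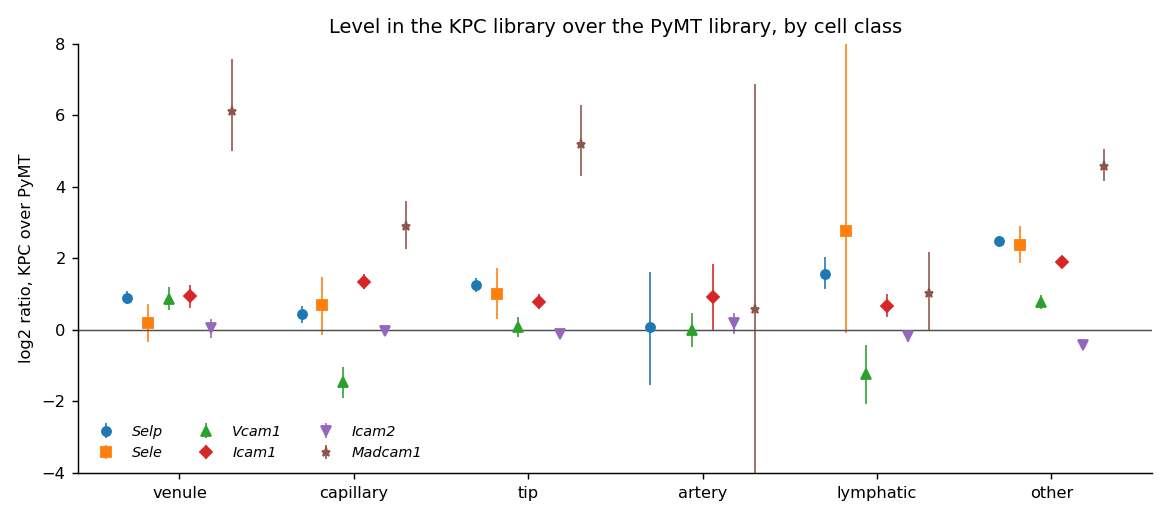
Log2 ratio of the level in KPC over PyMT for each member in 6 cell classes, with 95% counting intervals cut at the edges of the axis. Madcam1 stands at 6.14 in venule cells, 5.20 in tip cells and 4.60 in other cells, whereas the other members lie within 1 of 0 in venule cells and Vcam1 stands at -1.46 in capillary cells. Sele has no point in artery cells, where neither library had a UMI.

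A gene of the regulator list, Nkx2-3, differed between the libraries in the same direction as Madcam1. It encodes a homeobox factor known to be needed for Madcam1 in vessels of the spleen and gut, and it was singled out after its values were seen. KPC held 2545 Nkx2-3 UMIs in all, with 107 CPM in venule cells (88.9 to 128), 101 CPM in artery cells, 85.3 CPM in capillary cells, 62.9 CPM in tip cells and 12.2 CPM in lymphatic cells. PyMT held none in 54761994 UMIs. There 3 counts would have given 0.0548 CPM over the library and 4.16 CPM in its venule class, and the KPC venule level was 25.7-fold above the latter. Within KPC, Nkx2-3 did not follow the venule class as Madcam1 did, with a venule-to-capillary log2 ratio of 0.33 (0.014 to 0.63). It was found in 26.5% of Madcam1-positive venule cells (18.1 to 36.4%) and 16.3% of Madcam1-negative ones (10.6 to 23.5%), intervals that also overlapped. KPC tumor-class cells had 37.5 CPM of Nkx2-3 and fibroblasts 34.3 CPM. Glycam1, another gene of high endothelial venules, did not share the pattern, with 18.4 CPM in KPC and 1149 CPM in PyMT venule cells. A single PyMT cell held 782 of those 829 Glycam1 UMIs. Glycam1 in PyMT was not confined to venule cells. There 1 tumor-class cell held 419 of 426 UMIs and 1 tip cell 307 of 358, while the other class had 521 UMIs in 74 cells.

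The partners of the members on leukocytes and in the vessel wall were described with lists of named genes. The sort depleted cells bearing CD45, so these counts do not describe the leukocytes of the tumors. Of 12 genes for leukocyte ligands, such as Selplg, Itgal and Itga4, only Itgb1 and Cd44 had enough UMIs to compare venule with capillary cells. Neither passed 2-fold upward. Cd44 passed it downward, with log2 ratios of -1.67 in KPC and -1.04 in PyMT, on 2 venule UMIs in each library. Selplg, the main P-selectin ligand, had 1 UMI in the venule cells of each library. Of 12 transmigration and junction genes, 9 of the 10 with enough UMIs in KPC and 10 of 11 in PyMT were within 2-fold, with Jam2 higher by 1.37 in PyMT (1.14 to 1.59) and Jam3 lower by a log2 ratio of -2.46 in KPC, and no gene passed 2-fold in both. Of the granule storage genes, Vwf, which forms the granules that hold P-selectin, was higher in venule cells by 2.996 in KPC and 1.40 in PyMT, Edn1 by 1.30 and 2.21, and Rab27a by 1.07 and 1.20 (7 UMIs in PyMT venule cells). All told, 4 of 10 storage genes passed in KPC and 3 of 10 in PyMT, against 4.08% and 7.65% of all genes. None was lower, but only 7.58% and 7.99% of all genes were.

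Among 14 receptors known to act on these members, most of them for cytokines, 4 of 12 with enough UMIs were higher in venule cells of KPC and 3 of 12 in PyMT. None was lower. Of all genes compared, 4.08% in KPC and 7.65% in PyMT were higher, and 7.58% and 7.99% were lower. On a list this short, none lower does not set it apart from all genes. Il6st, the shared receptor chain of the interleukin 6 family, was higher by 1.89 and 2.79, Il1r1, the interleukin 1 receptor, by 1.46 and 1.19, and Tnfrsf11a, or RANK, by 2.41 and 1.13. The NF-kB targets were mixed. In KPC 5 of 21 were higher and 3 lower, and in PyMT 6 of 19 were higher and 2 lower, beside the same shares of all genes. Traf1 was higher by 2.496 and 1.17 and Il6 by 1.496 and 1.76, while Tnfaip2 fell by 1.10 and 1.12. Of the transcription factors, only Nr2f2, the venous fate factor, passed in both libraries, by 2.38 and 1.74, whereas Rela and Nfkb1 stayed within 2-fold. Gbp2 was the 1 interferon-stimulated gene higher in both, by 1.01 and 1.43.

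The genes whose levels over the 7 vascular classes were most like those of a member were found among 10076 genes by the correlation of log2(CPM + 1) in each library, taking the lower of the KPC and PyMT values. The 7 classes share a library, and each r is a description of shape, not of the size of a difference. How high the top r of 10076 genes over only 7 classes would be by chance was not tested. In KPC venule and capillary cells Jak1 had 339 and 221 CPM, Lrg1 5103 and 850 CPM and Sco1 8.77 and 5.87 CPM, beside 951 and 53.6 CPM for Selp. The pericyte class, among the 7, held 27 cells in PyMT, with 12807 CPM of capillary markers and 3302 CPM of pericyte markers. Nearest to Selp were Jak1 (0.90), Lrg1 (0.88) and Sco1 (0.87), and nearest to Sele were Hdc (0.95), the enzyme that makes histamine, Csrp2 (0.91) and Cysltr1 (0.87), a leukotriene receptor. Vcam1 was most like Atp1b3 (0.92), Ik (0.90) and Vwf (0.90), and Icam1 most like Lepr (0.91), the leptin receptor, Foxj3 (0.88) and Dram2 (0.88). For Icam2 they were Sorbs3 (0.91), Adipor1 (0.90) and Pon3 (0.89), and for Madcam1, on low counts in PyMT, D16Ertd472e (0.88), H2-Q7 (0.88) and Acer3 (0.87). Between the members themselves, the r of Selp with Sele was 0.97 in KPC and 0.81 in PyMT, that of Selp with Madcam1 0.98 and 0.39, and that of Selp with Icam2 -0.30 and -0.54.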

How the data were processed

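The authors generated single-cell 3′ RNA libraries on the 10x Genomics Chromium platform (kit version 2 per the labels, version 3 in a further part of the methods) and processed the reads with Cell Ranger 3.0 (3.0.2 in the matrix header) against mm10. The deposited matrices hold raw UMI counts per gene and barcode, 1 library per tumor model. Annexin V-positive cells were also depleted in the sort. Doublets were not removed before analysis, and no batch information was given.

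Cells were filtered and classed as described above. For each class, the UMIs of a gene over all its cells were divided by all UMIs there and scaled to CPM. Intervals for levels were exact Poisson, for ratios exact binomial and for shares Clopper-Pearson, at 95%, and cover counting error only. A UMI stands for 1 molecule whatever the transcript's length. Cells were thinned to 2000 UMIs, with shallower cells left out (95 of 334 KPC and 75 of 224 PyMT venule cells), before shares were compared. Thinning also left out 699 of 1317 KPC and 230 of 2647 PyMT capillary cells, and 38 of 106 KPC and 19 of 128 PyMT artery cells. The shares thus describe the deeper cells of each class. With 1 library per group there was no test, and no p-value was computed. The ratio procedure was run on class sums simulated as independent counts, the model that its intervals assume. That run cannot show how the intervals hold where single cells carry many of the UMIs. Members and gene lists were chosen with earlier results of these data known. Named genes were the 6 members, the 3 genes most like each of them (at least 100 UMIs per library, gate and mitochondrial genes excluded, pseudocount 1), and the genes of each non-marker list past 2-fold in both libraries, at most 4 per list. Nkx2-3, Cd74, Jam2, Jam3, Itgb1, Selplg, Glycam1, Rela, Nfkb1 and the venule markers were named after their values were seen. Positions came from GENCODE M21 and promoters from RefSeq. Analyses used Python 3.11.15, numpy 2.4.6, scipy 1.17.1, pandas 2.3.3 and matplotlib 3.10.9.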

Additional observations from a re-analysis of the deposited data

Results flagged for a closer look

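For 3 members the difference between tip and capillary cells ran in opposite directions in the 2 tumors, each with an interval that excluded 0. The log2 ratio of tip over capillary cells was 0.30 (0.072 to 0.54) in KPC and -0.51 (-0.71 to -0.32) in PyMT for Selp. It was 0.67 (0.21 to 1.15) and -0.87 (-1.09 to -0.65) for Vcam1, and 0.71 (0.31 to 1.14) and -1.58 (-2.78 to -0.50) for Madcam1. The difference between the tumors was not tested, since each had 1 library. Of the tip cells, 52 of 1409 in KPC and 36 of 2050 in PyMT also had 2 or more Ackr1 UMIs, as the artery and tip gates came before the venule gate. With the venule gate applied first, the KPC ratio was -0.23 for Selp, 0.21 for Vcam1 and -0.095 for Madcam1, each with an interval that included 0, and the PyMT ratios were -0.84, -0.91 and -1.55. Median depth was 5486 UMIs in KPC tip and 1897 in KPC capillary cells, against 5855 and 4266 in PyMT, and the ratios at 2000 UMIs per cell were 0.88, 0.88 and 0.76 in KPC and -0.31, -1.05 and -1.31 in PyMT, where the Selp and Madcam1 intervals included 0.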

How the results depend on the processing

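No paired analysis was possible because each tumor model had 1 library. Of 112 counts of members under other settings, 110 were within 1.5 times the reported one. The 2 others concerned members lower in PyMT venule than capillary cells, which was 1 (Madcam1, with no UMI left) in place of 0 when the capillary gate came first and when only cells of 1 vessel gate were kept; there the KPC-to-PyMT ratio of Madcam1 gave no value, and under the other alternatives it ran from 5.91 to 7.28. Among the log2 ratios past 2-fold, the PyMT venule-to-artery ratio of Madcam1 (2.04, on 6 and 1 UMIs) changed direction, to -0.14 with doubled gates, and no other did among the alternatives that gave a value. Of the log2 ratios under other settings, 92 left the counting interval of the reported value and 552 did not, and shares were not among these. KPC venule-to-capillary ratios were larger with doubled gates (6.54 for Madcam1, 5.77 for Vcam1) and some PyMT ratios smaller with the capillary gate first (3.18 for Sele, 1.59 for Vcam1). Without thinning, the share of venule cells with a UMI was 79.0% for Selp, 18.9% for Sele, 43.4% for Vcam1, 47.9% for Icam1 and 52.7% for Icam2 in KPC, and 68.3% for Selp and 45.1% for Icam2 in PyMT. Each of these lay outside the interval of its thinned share. The settings with a venule gate at 1 Ackr1 UMI, without the top Vcam1 artery cell and without the top venule cell of a gene list were chosen after seeing the data. Over all settings 5 members exceeded capillary cells in KPC and 4 to 5 in PyMT. The PyMT venule-to-artery ratio of Vcam1 ran from -0.97 with doubled gates to 0.62 without 1 cell. Leaving out replicates was not possible. Artery cells, 106 and 128, limited the comparison with that class, as did the lymphatic markers in the PyMT artery class.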
